A study of Homo sapiens with 24 samples.

Results

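Human OCI-AML3 leukaemia cells recovered from the blood of mice given a CXCR4 inhibitor for 72 h were compared with cells from the bone marrow of the same mice. The comparison uses the 72 h blood and marrow arrays of mouse 8 and mouse 9, paired by the mouse number in the sample titles, which makes 4 of the 24 arrays and 2 of the 8 mice of the series. OCI-AML3 is an established acute myeloid leukaemia line with a mutant NPM1 gene, engineered here to carry luciferase and GFP and grown in NOD/SCID/IL-2rγnull (NSG) mice, which lack functional T, B and NK cells of their own. Both mice received LY2510924, a peptide antagonist of CXCR4, at 2.5 mg/kg under the skin each day and were harvested on day 43 after inoculation. The sample characteristics spell the compound LY2510294. Cells were sorted on human CD45 and on a marker that the design text spells GEP, and their RNA was amplified in 2 rounds. The same site comparison in 3 untreated control mice, harvested on day 42, and in 3 mice treated for 24 h, harvested on day 41, is used only to show where 72 h differs. Harvest day and treatment cannot be told apart, and all cells come from 1 line.

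Stromal cells of the marrow secrete the chemokine CXCL12, which binds CXCR4 on haematopoietic and leukaemia cells, draws them to the niche and retains them there. Blocking the receptor releases cells into the blood, which is the basis of stem cell mobilisation in the clinic. ACKR3, also called CXCR7, is a second receptor for CXCL12 that scavenges it and signals without classical G protein coupling. In blood the cells lack contact with marrow stroma and meet other nutrient and cytokine conditions.

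The 4 arrays did not carry equal signal. On blood array 8, 13131 of 47231 probes were detected at a detection p under 0.01, against 14506 on blood array 9, 14519 on marrow array 8 and 13569 on marrow array 9. Its median raw intensity was 60.5, against 72.8, 66.7 and 68.2, and its mean correlation with the other arrays, 0.87, was the lowest of the 24. The marrow arrays of the mice correlated at 0.979 with each other and the blood arrays at 0.934. Probes of 1 gene also agreed less in mouse 8: the blood-marrow difference varied by over 1 log2 unit between detected probes for 308 of 1446 genes (21.3%), against 105 of 1635 (6.42%) in mouse 9 and 1.88% to 5.14% in control mice. Mice 1 and 2 of the 24 h group had shares of 16.9% and 23.1%. Results are therefore given for both mice. Of 102 called genes chosen by the naming rule for blood against marrow, 38 were no longer called by limma without blood array 8, and those described are named with the group they belong to.

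Blood and marrow cells differed for 1676 of 10351 genes (16.2%) at an adjusted p under 0.05 in limma's moderated test with the mouse as a block. In blood 596 genes were higher (5.76%) and 1080 lower (10.4%). These shares are the base against which the called members of each list below are to be read. Of these, 594 and 1077 went the same way in both mice, while 64.1% of all genes tested did so. The genes were called on the mean difference of these same mice, so their agreement is largely built in and is no replication. The test takes its spread from all 24 arrays. Without the mouse as a block 433 genes were called. From the 4 arrays alone limma called 0 genes, with 1680 at an unadjusted p under 0.05. Without blood array 8 the count was 799, of which 531 were among the 1676, and the share higher in blood went from 35.6% to 48.3%. With the mouse 9 pair alone 380 genes passed, and with the mouse 8 pair alone 2056. In fits with the mouse 8 or mouse 9 pair alone, the sites compared have no replicate array, so the spread comes from the other groups. Without blood array 8 the blood side has no replicate array. Passing or missing the threshold in these fits, here and below, describes the size of the step and is no test of agreement between mice. At the threshold, MED28 lay just inside with an adjusted p of 0.049967 in the moderated test of limma and ARHGEF12 just outside with 0.05002.

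**Figure D1:**
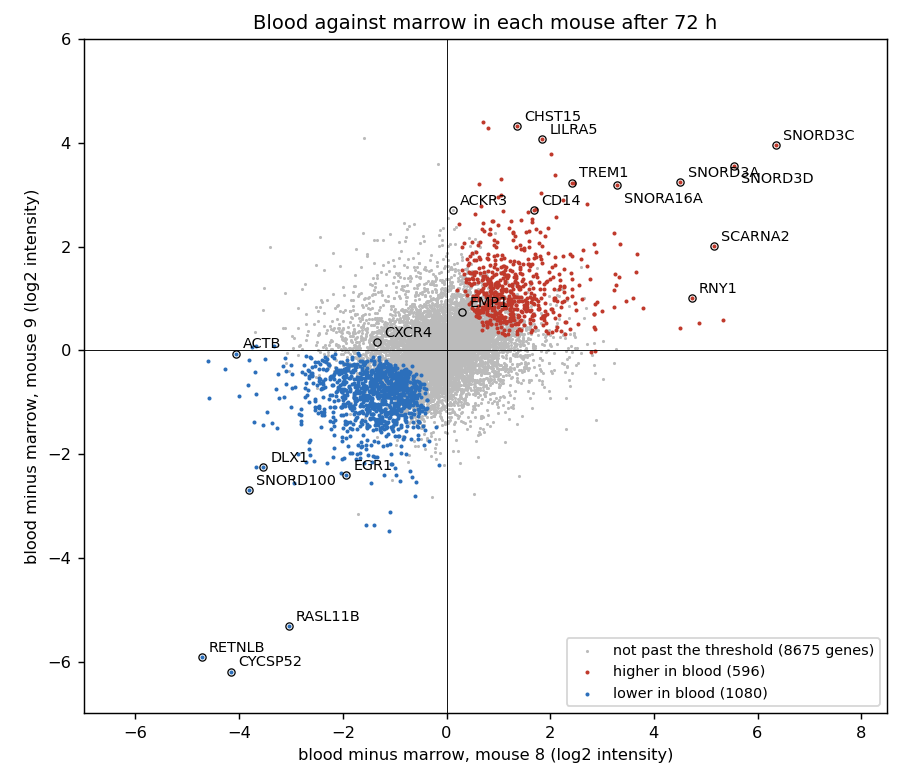
Blood minus marrow difference of each of 10351 genes in mouse 8 (x axis) and mouse 9 (y axis), on the log2 intensity scale. Genes past the adjusted p threshold are red where higher in blood (596) and blue where lower (1080); labelled genes are named in the text, and the spread along the x axis is wider (SD 0.931) than along the y axis (SD 0.715).

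Taken singly, mouse 8 had 914 genes over 2-fold higher (8.83%) and 1613 over 2-fold lower (15.6%) in blood, with a median difference over all genes of -0.15. In mouse 9 the numbers were 765 (7.39%) and 673 (6.5%), with a median near 0. On the deposited background-subtracted scale, with a floor of 16 and no scaling between arrays, the balance changed to 403 higher and 3920 lower genes in mouse 8 and to 2254 higher and 346 lower in mouse 9. Both mice exceeded 2-fold for 237 higher (2.29%) and 291 lower genes (2.81%), and 76 genes (0.734%) exceeded it in opposite directions. Across genes the differences of the mice correlated at 0.397, a description over genes that share arrays and background.

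The largest rises in blood were small RNAs that guide RNA processing. SNORD3C, a copy of the U3 small nucleolar RNA needed for cleavage of the ribosomal RNA precursor, read 7.73 in marrow and 14.09 in blood of mouse 8, and 8.15 and 12.11 in mouse 9 (normalised log2 intensity). Blood was far above marrow in both mice, and the fitted difference was 5.16 ± 0.65 (log2, SE, 2 mice; adjusted p = 0.000749, limma). SNORD3D and SNORD3A rose by 4.54 and 3.88, but these copies are nearly identical in sequence and their probes cannot be told apart as transcripts. Untreated control mice also had higher readings in blood, by 3.83 for SNORD3C, 3.59 for SNORD3D and 3.52 for SNORD3A. SNORA16A, a guide for pseudouridylation, read 4.81 in both marrow arrays, where it was not well above background, and 8.10 and 8.01 in blood. Here the mice gave nearly the same difference, and blood was at least 4.18-fold higher (adjusted p = 0.00024, limma).

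Other rises among small RNAs came mostly from mouse 8. SCARNA2, a guide RNA of the Cajal body, was not detected in marrow (4.75 and 4.65) and read 9.91 in blood of mouse 8 and 6.67 in blood of mouse 9, at least 4.93-fold higher. RNY1, the Y RNA bound by the Ro60 protein, read 5.75 and 5.42 in marrow and 10.48 and 6.43 in blood, at least 5.53-fold higher. Both exceeded marrow in each mouse, but the rise of RNY1 was 4.73 in mouse 8 and 1.01 in mouse 9, and without blood array 8 it was 1.09 with an adjusted p of 0.38 in limma. The vault RNA VTRNA1-1 read 4.57 and 4.85 in marrow and 9.91 and 5.44 in blood, where only array 8 detected it, and it was no longer called without that array (1.11, adjusted p = 0.401, limma). Over the list of 18 tested small RNA genes 8 rose and 1 fell, and the median difference was 1.97 against -0.08 for all genes. The median was 2.77 in mouse 8 and 0.48 in mouse 9, and 16 of 18 were brighter on blood array 8 than on blood array 9, by a median of 1.99. Leaving out blood array 8, 6 members passed. The part of that array in this list was not tested. Mice 1 and 2 of the 24 h group had list medians of 2.42 and 2.84, against 0.000717 in mouse 3 and 0.102 to 0.742 in controls.

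Large rises outside small RNAs included a receptor, an enzyme and a kinase inhibitor. LILRA5, an activating immunoglobulin-like receptor of monocytes, read 7.58 and 5.22 in marrow and 9.42 and 9.29 in blood. CHST15, which sulfates chondroitin chains, read 7.95 and 6.02 in marrow and 9.31 and 10.34 in blood. INKA2, an inhibitor of the kinase PAK4, read 7.32 and 4.88 in marrow and 9.34 and 8.66 in blood. Each was higher in blood in both mice with a larger step in mouse 9, and the fitted differences were 2.96 ± 0.55, 2.84 ± 0.55 and 2.90 ± 0.52. The site differences in control mice were of like size, at 2.52, 2.88 and 3.61 in the same order. LILRA5 and CHST15 missed the threshold with mouse 8 alone, where their steps were 1.84 and 1.37.

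The 3 largest falls were RETNLB, CYCSP52 and RASL11B. RETNLB, a secreted resistin-like protein best known from gut goblet cells, read 10.76 and 12.45 in marrow and 6.03 and 6.53 in blood, where 1 of 2 arrays detected it. CYCSP52, listed as a cytochrome c pseudogene and so open to signal from its parent gene and other copies, read 9.20 and 11.34 in marrow and was not detected in blood (5.03 and 5.14). RASL11B, a small Ras-like GTPase, read 7.70 and 10.21 in marrow and was not detected in blood (4.65 and 4.89). In all 3 the marrow and blood values lay wide apart in both mice, and marrow 9 was brighter than marrow 8. The fitted fall of RETNLB was 40-fold (log2 -5.32 ± 0.78, adjusted p = 0.00183, limma), that of CYCSP52 at least 18.6-fold (adjusted p = 0.00024) and that of RASL11B at least 7.48-fold (adjusted p = 0.000282). In mouse 8 and mouse 9 the steps were -4.73 and -5.92 for RETNLB, -4.17 and -6.19 for CYCSP52 and -3.04 and -5.32 for RASL11B.

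Other falls included transcription factors and RNA genes. SNORD100, a box C/D guide RNA, read 8.56 and 8.46 in marrow and was not detected in blood (4.74 and 5.76), at least 5.50-fold lower. DLX1, a homeobox factor, read 8.82 and 9.74 in marrow and 5.29 and 7.49 in blood (log2 -2.89 ± 0.27, adjusted p = 0.000232, limma). ZFHX3, a zinc finger homeobox factor, read 8.08 and 7.92 in marrow and was not detected in blood (5.14 and 5.37), at least 3.86-fold lower. A second DLX1 probe differed less, by -0.33 in mouse 8 and -1.10 in mouse 9. ZFHX3 missed the threshold without blood array 8. CLC, the galectin of Charcot-Leyden crystals, was also undetected in blood and at least 3.92-fold lower. GMCL1, the homologue of the Drosophila germ cell-less gene, and CAND2, a cullin-associated protein, fell by 2.74 and 2.49 (log2), but GMCL1 fell by 4.58 in mouse 8 and by 0.91 in mouse 9. Without blood array 8, GMCL1 (adjusted p = 0.18) and CLC (0.129) were not called by limma.

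**Figure D2:**
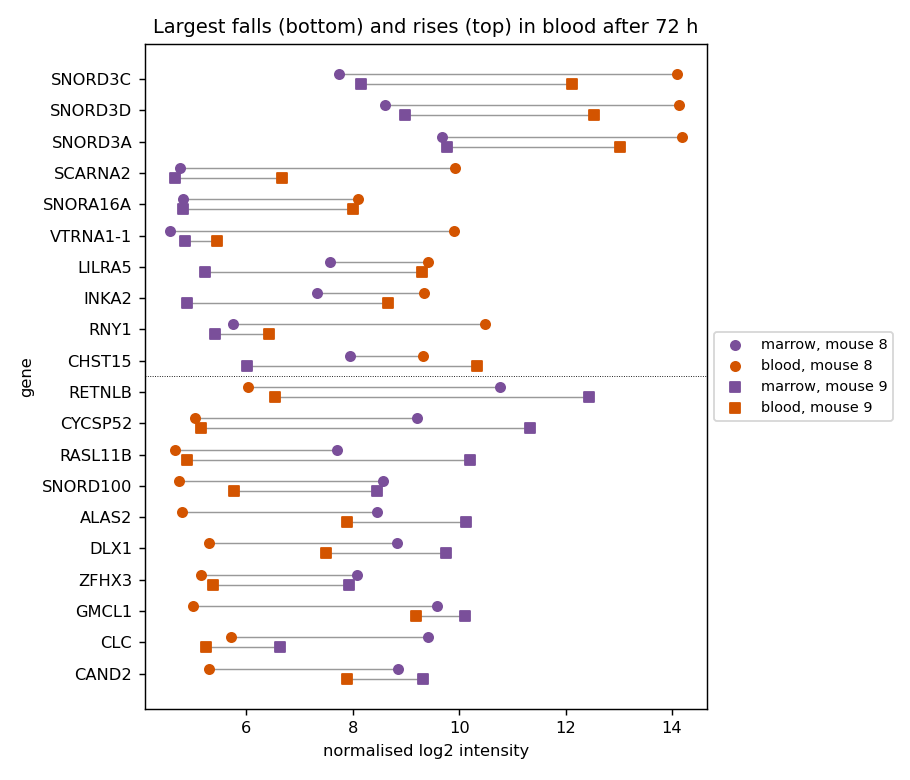
Normalised log2 intensity (x axis) of the 10 largest rises and 10 largest falls (y axis) on the 4 arrays; purple marks marrow and orange blood, circles mouse 8 and squares mouse 9, and grey lines join the sites of 1 mouse. Blood lies on the same side of marrow in both mice for all 20 genes, while RNY1, VTRNA1-1 and GMCL1 show a much longer line in mouse 8 than in mouse 9.

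CXCR4, the target of the drug, gave readings that depended on the probe. The brighter probe, which stood for the gene, read 10.69 in marrow and 9.34 in blood of mouse 8, and 10.68 and 10.84 in mouse 9. The mice went opposite ways, and the fitted difference of -0.59 ± 0.29 did not pass (adjusted p = 0.174, limma). A dimmer CXCR4 probe, detected on 3 of the 4 arrays, was higher in blood in both mice, by 1.08 and 1.35. ACKR3 read 10.90 and 9.66 in marrow and 11.03 and 12.37 in blood, so that mouse 9 carried the difference of 1.42 ± 0.51 (adjusted p = 0.0699, limma). With that pair alone it was 2.71. CXCL12 was detected on 0 of the 24 arrays, as read by a probe for the human transcript.

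In the list of chemokine receptors, adhesion and trafficking genes, 2 of 22 tested rose and 3 fell, and the median was near 0. Among all genes 5.76% rose and 10.4% fell. RGS1, which shortens chemokine receptor signals by speeding GTP hydrolysis, read 10.55 and 9.65 in marrow and 7.89 and 7.75 in blood and was 4.85-fold lower (adjusted p = 0.00403, limma). CCR2, the CCL2 receptor that guides monocytes out of the marrow, read 9.63 and 9.65 in marrow and 8.55 and 8.51 in blood and was 2.16-fold lower. CD47, which restrains phagocytosis by macrophages, fell by 0.89 (log2). For all 3 the blood arrays lay below both marrow arrays. SELPLG, the ligand of P-selectin, rose by 1.74 and ITGAL, the alpha chain of LFA-1, by 1.62. The steps of SELPLG were 1.98 in mouse 8 and 1.51 in mouse 9, and those of ITGAL 1.59 and 1.66. ITGAL missed the threshold without blood array 8 (adjusted p = 0.0532, limma).

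Genes of mitosis were lower in blood as a group. Of 33 listed genes, all tested, 17 fell and 0 rose, and the median was -1.05. In both mice 27 were lower, against 3698 of all 10351 genes. CENPA, the histone of centromeres, read 8.55 and 9.57 in marrow and 6.54 and 7.47 in blood, 4.16-fold lower (log2 -2.06 ± 0.34, adjusted p = 0.00312, limma). A second CENPA probe differed by only -0.14. KIF11, the motor that separates spindle poles, read 8.87 and 9.28 in marrow and 6.92 and 7.58 in blood, and both of its probes were lower in both mice. HMMR, a spindle assembly protein, read 9.69 and 10.54 in marrow and 7.94 and 8.46 in blood, again with a second probe lower in both mice. For these genes both blood arrays lay below both marrow arrays. The cytokinesis scaffold ANLN fell by 2.19 and the checkpoint kinase BUB1B by 1.79, and TOP2A, CCNB1 and AURKA were also called. All 33 genes were dimmer in marrow 8 than in marrow 9, by a median of 0.70, whereas the blood arrays differed by a median of -0.03, and the median blood-marrow difference was -0.73 in mouse 8 and -1.38 in mouse 9. With mouse 9 alone 4 members passed and with mouse 8 alone 6.

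Promoters of such genes are known for the cell cycle homology region (CHR) bound by the DREAM and MuvB complexes and for CCAAT boxes bound by NF-Y. The promoters of CENPA, KIF11 and HMMR, among the 5 mitosis genes with the smallest p, are shown because they hold both elements. They run from 250 bases before the start to the end of the first 50 transcribed bases, 5′ to 3′ on the strand of the gene, from RefSeq on GRCh38.p14. Capitals mark TTTGAA (CHR) and CCAAT (NF-Y) or their reverse complements TTCAAA and ATTGG.
CENPA, chr2:26785806-26786105, plus strand: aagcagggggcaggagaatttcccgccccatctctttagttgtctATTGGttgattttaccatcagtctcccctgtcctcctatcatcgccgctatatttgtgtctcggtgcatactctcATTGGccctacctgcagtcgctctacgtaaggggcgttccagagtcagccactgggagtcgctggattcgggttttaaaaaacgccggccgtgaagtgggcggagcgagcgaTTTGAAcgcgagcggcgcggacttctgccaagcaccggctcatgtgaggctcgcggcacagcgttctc
KIF11, chr10:92592880-92593179, plus strand: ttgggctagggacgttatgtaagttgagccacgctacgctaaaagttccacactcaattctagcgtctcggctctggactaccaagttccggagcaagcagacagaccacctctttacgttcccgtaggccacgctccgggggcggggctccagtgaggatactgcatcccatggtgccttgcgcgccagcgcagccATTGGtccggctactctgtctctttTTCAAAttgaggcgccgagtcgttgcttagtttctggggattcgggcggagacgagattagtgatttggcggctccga
HMMR, chr5:163460382-163460681, plus strand: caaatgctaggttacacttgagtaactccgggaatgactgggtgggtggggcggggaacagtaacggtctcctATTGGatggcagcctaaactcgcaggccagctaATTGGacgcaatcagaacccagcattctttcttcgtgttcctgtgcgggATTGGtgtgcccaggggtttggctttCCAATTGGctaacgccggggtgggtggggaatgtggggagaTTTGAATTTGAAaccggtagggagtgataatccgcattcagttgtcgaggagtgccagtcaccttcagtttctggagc
The CHR letters begin 18 bases before the start in CENPA and 28 bases before it in KIF11, where a CCAAT box in reverse lies 53 bases before the start. In HMMR the CHR letters occur back to back, 28 and 22 bases before the start, and a CCAAT and an ATTGG overlap. Of 33 mitosis genes 28 matched a RefSeq promoter, and 20 of those (71.4%) held a CHR match on either strand, against 15.4% of all 27305 promoters. CCAAT was found in 22 (78.6%), against 35.7% of all, and both in 17 (60.7%), against 6.1%. Promoters of ribosomal protein genes held the CHR in 17.2% and CCAAT in 34.5%. Among 15 promoters of mitosis genes called lower in blood, 73.3% held the CHR, 73.3% CCAAT and 53.3% both, close to the shares of the whole list. The promoters of ANLN and BUB1B, also among the 5 with the smallest p, held no CCAAT. All these matches describe letters in a fixed window and no binding was measured. A link of the letters to the fall in blood was not tested.

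Several genes of DNA replication and ribosome assembly were lower as well. Of 27 tested replication genes 13 fell and 0 rose, with a median of -0.77. UHRF1, which carries DNA methylation through replication, read 10.86 and 11.35 in marrow and 7.99 and 9.36 in blood, 5.39-fold lower (adjusted p = 0.00183, limma). UNG, the uracil-DNA glycosylase, read 12.62 and 12.99 in marrow and 11.65 and 11.58 in blood, 2.28-fold lower. RRM2, the small subunit of ribonucleotide reductase, was also called and was detected in marrow only. POLE2, a subunit of DNA polymerase epsilon, fell by 3.47 in mouse 8 and by 1.19 in mouse 9. With the mouse 9 pair alone 3 members of this list passed, and with the mouse 8 pair alone 7.

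Of 23 ribosome biogenesis genes 11 fell and 0 rose, with a median of -0.81. WDR12, a factor in the maturation of the large subunit, read 10.31 and 11.02 in marrow and 9.07 and 9.74 in blood, 2.39-fold lower with nearly the same step in each mouse. RRS1, a ribosome assembly factor, fell by 1.81, and DKC1, the pseudouridine synthase dyskerin, by 1.05 (log2). In both mice 15 of the 23 were lower, and the list median was -0.54 in mouse 8 and -0.69 in mouse 9. Fewer members passed with either mouse alone, and with mouse 8 alone not all of them were lower in blood. Among 37 cytosolic ribosomal proteins 0 rose and 1 fell (RPL34), with a median of -0.02. RPL34 was not called without blood array 8 (adjusted p = 0.0578, limma), and its second probe differed by 1.46 in mouse 8 and by -0.43 in mouse 9. In the list of the MYC network and polyamine synthesis 5 of 16 fell and 0 rose. AMD1, an enzyme of polyamine synthesis, read 7.38 and 8.02 in marrow and was not detected in blood, at least 3.13-fold lower. ODC1, which makes putrescine, was 2.75-fold lower and MYC itself 2.40-fold lower (8.73 and 9.06 in marrow, 7.59 and 7.67 in blood). The steps of AMD1 were -2.04 in mouse 8 and -2.37 in mouse 9.

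Immediate early genes gave a mixed group. Of 27 tested, 4 fell and 1 rose, with a median of -0.35. EGR1, a zinc finger factor induced within minutes by growth signals, read 12.21 and 13.04 in marrow and 10.27 and 10.64 in blood, 4.51-fold lower (adjusted p = 0.00564, limma). FOS read 13.51 and 13.83 in marrow and 11.95 and 12.96 in blood, and JUN, its partner in AP-1, read 13.11 and 12.79 in marrow and 11.75 and 11.63 in blood. Blood lay below marrow for all 3 in both mice. KLF4, a monocytic transcription factor, was 2.47-fold lower. KLF10, a TGF-beta responsive repressor, was not detected in marrow and was at least 1.30-fold higher in blood, but its second probe differed by -0.33 in mouse 8 and by 0.26 in mouse 9. KLF4 (adjusted p = 0.0563) and KLF10 (0.0924) were not called by limma without blood array 8. In the NF-kB and cytokine list 2 of 24 rose and 2 fell, against 5.76% and 10.4% of all genes. The lymphotoxin subunit LTB (log2 1.78) and the chemokine CCL5 (0.82) rose, while the neutrophil attractant CXCL1 (-1.66) and NFKB1 (-0.61) fell. Of these, CXCL1 (adjusted p = 0.0513), CCL5 (0.0813) and NFKB1 (0.12) were not called by limma without blood array 8. CXCL8 read 12.67 and 11.99 in marrow and 10.81 and 10.77 in blood, but did not pass (adjusted p = 0.0708, limma).

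A few stress genes fell, and a few others read higher without passing. In the ATF4 and CHOP list 4 of 22 fell and 0 rose, and the leading members were PSAT1 and PSPH, enzymes of serine synthesis. PSAT1 read 9.11 and 9.57 in marrow and 7.14 and 7.50 in blood, 4.06-fold lower with steps of 1.97 and 2.07 (adjusted p = 0.00243, limma). DDIT3, the factor CHOP, fell by 0.69 and the chaperone DNAJB9 by 0.72. ATF4 itself read 13.14 and 13.01 in marrow and 13.42 and 13.22 in blood and was not called. Of 20 heat shock genes 5 fell and 0 rose, with a median of -0.41, among them HSPH1, HSPA9 and HSPD1. In both mice 12 of the 20 were lower and 3 higher. The 3 were HSPA6 (9.82 and 9.09 in marrow, 10.67 and 10.22 in blood), HSPA1A and HSPB1, and none passed. CHORDC1, an HSP90 co-chaperone, fell by 2.71 in mouse 8 and 0.63 in mouse 9. With the mouse 9 pair alone 0 heat shock genes and 2 ATF4 list genes passed. Leaving out blood array 8, limma no longer called DDIT3 (adjusted p = 0.305), DNAJB9 (0.103), CHORDC1 (0.173), HSPH1 (0.0589) and HSPA9 (0.112), and 1 heat shock gene passed. Without the replicate block 1 ATF4 list gene and 0 heat shock genes passed.

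Many but not all genes of mature monocytes read higher in blood. Of 29 tested, 10 rose and 0 fell, and the median was 0.82. In both mice 18 were higher and 3 lower, against 2936 and 3698 of all 10351 genes. CD163 differed by -1.55 in mouse 8 and by -0.345 in mouse 9 without passing the threshold. TREM1, a receptor that amplifies inflammatory signals, read 8.29 and 6.97 in marrow and 10.70 and 10.20 in blood, 7.09-fold higher (log2 2.83 ± 0.33, adjusted p = 0.000483, limma). CD14, the co-receptor for endotoxin, read 11.66 and 10.27 in marrow and 13.34 and 12.97 in blood, 4.57-fold higher, and its second probe was higher in both mice as well. Blood exceeded marrow in the control mice too, by 2.11 to 3.38 for TREM1 and by 3.11 to 4.33 for CD14 (log2). SLC11A1, a metal transporter of phagosomes, read 7.90 and 5.54 in marrow and 10.14 and 8.45 in blood. Marrow 8 was brighter than marrow 9 for all 3. CSF1R, the M-CSF receptor, rose by 2.05, S100A12 by 1.76 and the formyl peptide receptor FPR1 by 1.67. The list median was 0.29 in mouse 8 and 1.41 in mouse 9. When blood array 8 was left out, 11 members passed, but CSF1R did not (adjusted p = 0.053, limma). With mouse 9 alone 7 rose and 0 fell, and with mouse 8 alone 5 rose and 2 fell. Without the replicate block 4 rose.

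Lysosomal genes went both ways. Of 22 tested, 3 rose and 2 fell, while 5.76% of all genes rose and 10.4% fell. The protease CTSB read 11.02 and 10.36 in marrow and 12.49 and 12.04 in blood (2.97-fold, adjusted p = 0.00372, limma). PSAP and CTSL rose by 0.91 and 0.82. CTSC and NPC1 fell, but the cholesterol exporter NPC1 read 9.45 and 5.71 in mouse 8 and 8.99 and 9.05 in mouse 9, so that the low reading was on blood array 8. When that array was left out, CTSL (adjusted p = 0.249), CTSC (0.33) and NPC1 (0.78) were not called by limma, and 3 list members passed, all higher in blood.

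MHC class II genes present peptides to CD4 T cells. Of 11 tested, 1 rose and 0 fell, with a median of 0.35. The riser was CIITA, the master activator of the class, with an adjusted p of 0.0498 in limma and 0.275 without blood array 8. All 11 genes were brighter in mouse 8 than in mouse 9, by a median of 1.89 in marrow and 1.20 in blood, against a median site difference of 0.35. HLA-DMB, HLA-DMA and CD74 read higher in blood in both mice without passing the threshold. HLA-DPA1, a class II alpha chain, read 9.86 in marrow and 9.69 in blood of mouse 8, and 7.48 and 8.49 in mouse 9. Of 14 class I and peptide loading genes 0 rose and 1 fell, the chaperone CALR, and B2M read between 12.83 and 13.83 on all 4 arrays. CALR was not called without blood array 8 (adjusted p = 0.332, limma). In the interferon list 3 of 24 rose, with a median of 0.10. These were the GTPase GBP2 (4.12-fold), the nuclease ISG20 (3.85-fold) and the factor IRF7 (1.74-fold, adjusted p = 0.444 in limma without blood array 8), while ISG15 differed by 1.59 in mouse 8 and by -0.09 in mouse 9.

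Several cholesterol synthesis genes were higher in blood, with a list median of 0.17 in mouse 8 and 0.63 in mouse 9. Of 17 tested, 6 rose and 0 fell, with a median of 0.66. In both mice 12 were higher, against 2936 of all 10351 genes. DHCR7, which acts at the end of cholesterol synthesis, read 8.25 and 7.55 in marrow and 8.86 and 9.58 in blood, 2.49-fold higher (adjusted p = 0.0193, limma). HMGCS1, which makes HMG-CoA, read 10.15 and 9.87 in marrow and 10.95 and 10.39 in blood, 1.58-fold higher. Blood exceeded marrow for both, with the larger step in mouse 9 for DHCR7 and in mouse 8 for HMGCS1. TM7SF2, MSMO1, NSDHL and FDPS were the other 4. A second MSMO1 probe went the opposite way, by -0.51 in mouse 8 and -0.66 in mouse 9. HMGCS1 (adjusted p = 0.177) and NSDHL (0.112) were not called by limma without blood array 8, and 5 list members were. With mouse 9 alone 4 members passed, and with mouse 8 alone 1. That 1 was lower in blood. Without the replicate block 1 member passed, higher in blood.

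Energy metabolism differed in few members. In the glycolysis and hypoxia list 3 of 28 rose and 0 fell. PFKFB4, which sets the level of the glycolytic activator fructose 2,6-bisphosphate, read 8.80 and 8.30 in marrow and 10.18 and 9.54 in blood, 2.47-fold higher. The aldolase ALDOC rose by 1.19 and the peptide hormone ADM by 1.36. Of 36 oxidative phosphorylation subunits 2 rose and 1 fell, with a median of -0.08, near that of all genes. Among all genes 5.76% rose and 10.4% fell. NDUFB10 rose by 1.70, by 2.27 in mouse 8 and 1.13 in mouse 9. ALDOC (adjusted p = 0.075) and NDUFB10 (0.0596) were not called by limma without blood array 8.

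In the BCL2 family the survival gene BCL2L1 was lower in blood. The share of all genes called either way was 16.2%. BCL2L1, which encodes BCL-XL, read 11.41 and 11.997 in marrow and 10.45 and 10.78 in blood, 2.12-fold lower (log2 -1.09 ± 0.18, adjusted p = 0.00318, limma). BCL2 read 9.91 and 10.74 in marrow and 8.86 and 8.56 in blood, 3.07-fold lower, but 1 of its other probes differed by 0.87 in mouse 8 and by -0.47 in mouse 9. The pro-apoptotic BAD was 1.95-fold higher. Of 15 tested, these were the 3 that passed, and BAD did not pass without blood array 8 (adjusted p = 0.127, limma). Among 10 tested genes of the HOX and stem cell programme of NPM1-mutant leukaemia, MSI2 and HOXB7 rose and the receptor kinase FLT3 fell by 0.87 (log2), by 1.28 in mouse 8 and 0.46 in mouse 9. MSI2 was detected on no marrow array and on 1 of 2 blood arrays. Leaving out blood array 8, FLT3 (adjusted p = 0.15) and HOXB7 (0.0928) were not called by limma.

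**Figure D3:**
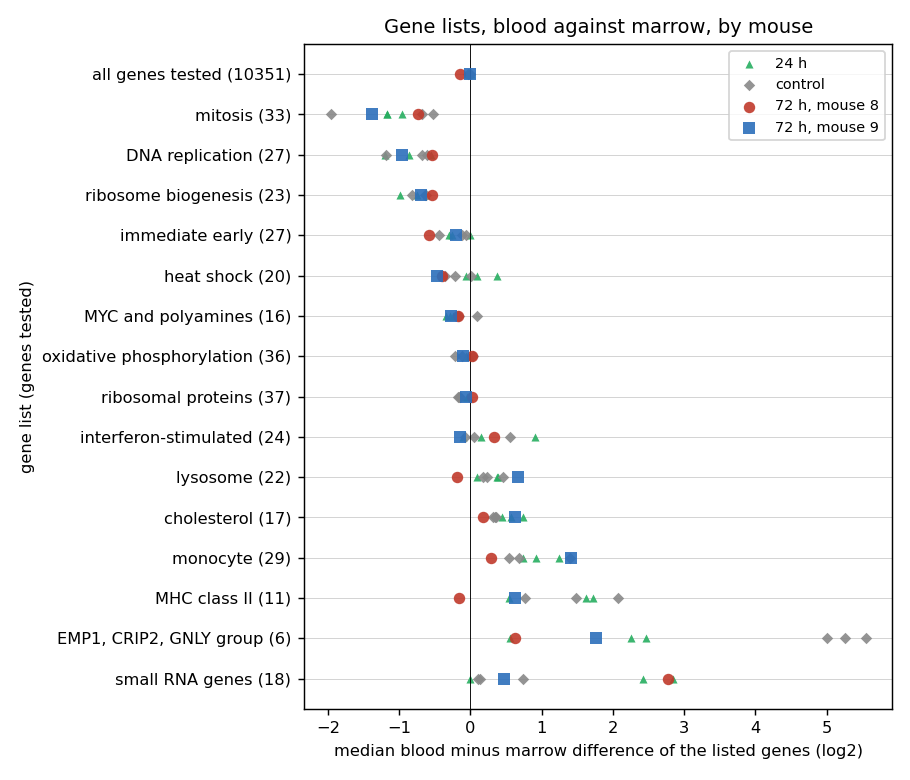
Median blood minus marrow difference (log2, x axis) of 15 gene lists and of all genes tested (y axis, number tested in brackets) in each of the 8 mice; red circles mark mouse 8, blue squares mouse 9, green triangles the 24 h mice and grey diamonds the controls. Mitosis, replication and ribosome biogenesis lie left of 0 in all 8 mice, and the small RNA genes lie at 2.77 in mouse 8 but at 0.48 in mouse 9. In 24 h mice 1 and 2 the small RNA genes lie at 2.42 and 2.84.

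Defining markers of the line were partly readable. Of 7 marker genes with a probe, SPI1, CEBPA, MEIS1 and ANPEP were detected on all 4 arrays, PTPRC (CD45) only on blood array 8, and the probes for MPO and NPM1 on none. Of 5 tested, 0 were called in limma's test. SPI1, a myeloid transcription factor, read higher in blood by 2.13 and 1.17 without passing (adjusted p = 0.0729). Of 13 erythroid markers with a probe 8 were detected on none of the 4 arrays, and of 4 tested 3 fell: ALAS2, the first enzyme of erythroid haem synthesis, HBD and FECH. ALAS2 read 8.46 and 10.13 in marrow and 4.78 and 7.89 in blood (7.76-fold lower). HBA2 read from 14.10 to 14.30 on all 4 arrays and HBB was detected only in marrow 9. Without blood array 8 only HBD of the 3 was called (ALAS2 adjusted p = 0.0599 and FECH 0.152, limma). The summed log2 level of the 13 markers was 82.22 and 87.08 in marrow and 76.94 and 80.41 in blood. Of 14 T and NK cell markers 10 were detected on none of the 4 arrays, CD3E among them, and the sums were 83.34 and 83.39 in marrow and 84.29 and 80.79 in blood. For B cells 5 of 8 markers were at background on all 4 arrays, with sums from 42.76 to 45.59. Platelet markers (7 of 9 at background, PF4 among them, sums from 47.20 to 48.56) and stromal markers (8 of 10 at background, sums from 52.48 to 54.42) were likewise dim. For tissue macrophages 5 of 10 markers were at background on all 4 arrays (sums from 56.66 to 60.17), and for neutrophils 6 of 12 (sums from 82.27 to 85.74). FCER2 rose from the B cell list and MARCO from the macrophage list, and 0 of 6 neutrophil markers were called. The probes were made for human transcripts and the hosts were mice, so undetected markers say nothing about admixed host cells. The sums add many readings at background. In sorted bulk cells, fewer cells of a type and less RNA per cell cannot be told apart, and the part of erythroid transcripts in other results was not tested.

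The site difference at 72 h departed from that in untreated mice for 146 of 10351 genes (1.41%) in a test of the difference between the differences, with 33 more positive and 113 more negative at 72 h. Blood against marrow in controls was called for 16.3% of genes, among them 512 of the 1676 called at 72 h. The genes with the largest negative departures were of 2 kinds. RETNLB and CYCSP52 were near background or dim at both sites of control mice (RETNLB read 7.35 ± 0.26 in marrow and 7.53 ± 1.81 in blood, SD, n = 3) and bright in 72 h marrow, giving departures of -5.51 and -4.85. Without blood array 8 that of RETNLB missed the threshold (adjusted p = 0.0621, limma) and that of CYCSP52 passed. EMP1, a tetraspan epithelial membrane protein, H19, an imprinted noncoding RNA, and CD9, a tetraspanin, were instead low in control marrow and high in control blood. EMP1 read 6.24 ± 0.068 in control marrow and 11.73 ± 0.24 in control blood, against 8.68 and 7.84 in 72 h marrow and 8.98 and 8.58 in 72 h blood. At 72 h the sites nearly met, and the departure was -4.97 (-5.19 without mouse 9 and -4.75 without mouse 8). H19 departed by -4.68 and CD9 by -4.60, but with mouse 9 alone neither passed (adjusted p = 0.0926 and 0.121, limma).

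A group of 6 genes, EMP1, CRIP2, GNLY, H19, CD9 and TPPP3, had been picked from earlier results of these data for being low in control marrow and high in control blood, so its control values describe that choice. Since those control values chose the genes, a smaller gap in other mice is in part built in, and no support is drawn from the group or from the departures of EMP1, H19 and CD9 above. Their median difference was 5.37 in controls, 1.75 at 24 h and 1.04 at 72 h. At 72 h TPPP3, CRIP2 and GNLY were still higher in blood. GNLY, the cytolytic protein granulysin, read 11.10 and 9.15 in marrow and 12.05 and 11.14 in blood of the 72 h mice, against 6.39 ± 0.32 in control marrow and 11.83 ± 0.29 in control blood. CRIP2, a LIM domain protein, read 10.68 and 8.66 in marrow and 11.72 and 11.66 in blood. In control mice CRIP2 read 6.56 ± 0.36 in marrow and 12.41 ± 0.48 in blood. Both 72 h marrow arrays thus lay well above control marrow for GNLY and CRIP2, while 72 h blood lay nearer to control blood. Marrow 8 exceeded marrow 9 for all 6 genes.

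Some MHC class II genes departed as well. In control mice 9 of 11 genes were higher in blood, with a median of 1.26, and 3 departed at 72 h. HLA-DPA1 read 6.46 ± 0.36 in control marrow and 9.74 ± 0.68 in control blood, and its 72 h marrow values are the raised ones given above. The site difference of BCL2L1 in controls was 0.12 and did not pass (adjusted p = 0.655, limma; 10.70 ± 0.099 in marrow and 10.81 ± 0.24 in blood), and its fall at 72 h departed from it (adjusted p = 0.0215, limma), with 72 h marrow the higher reading. RASL11B departed in the same direction (adjusted p = 0.0211, limma). On the positive side DHRS3, a retinal reductase, differed by -2.34 in controls. At 72 h it differed by -0.63 in mouse 8 and by 2.43 in mouse 9 (0.90, adjusted p = 0.198, limma), a departure of 3.24. SCARNA2 (3.06), the microRNA gene MIR24-2 (2.45) and SNORD49A (2.44) departed upward as well, but none of these 3 passed without blood array 8. LY9, a SLAM family receptor, departed by 2.60 and missed the threshold without that array (adjusted p = 0.0673, limma). Mitosis, replication, ribosome biogenesis, cholesterol and monocyte genes gave 0 departures from control, where 1.41% of all genes departed. In lists of 17 to 33 genes 0 is near that share, and it does not show that their site differences were unchanged.

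**Figure D4:**
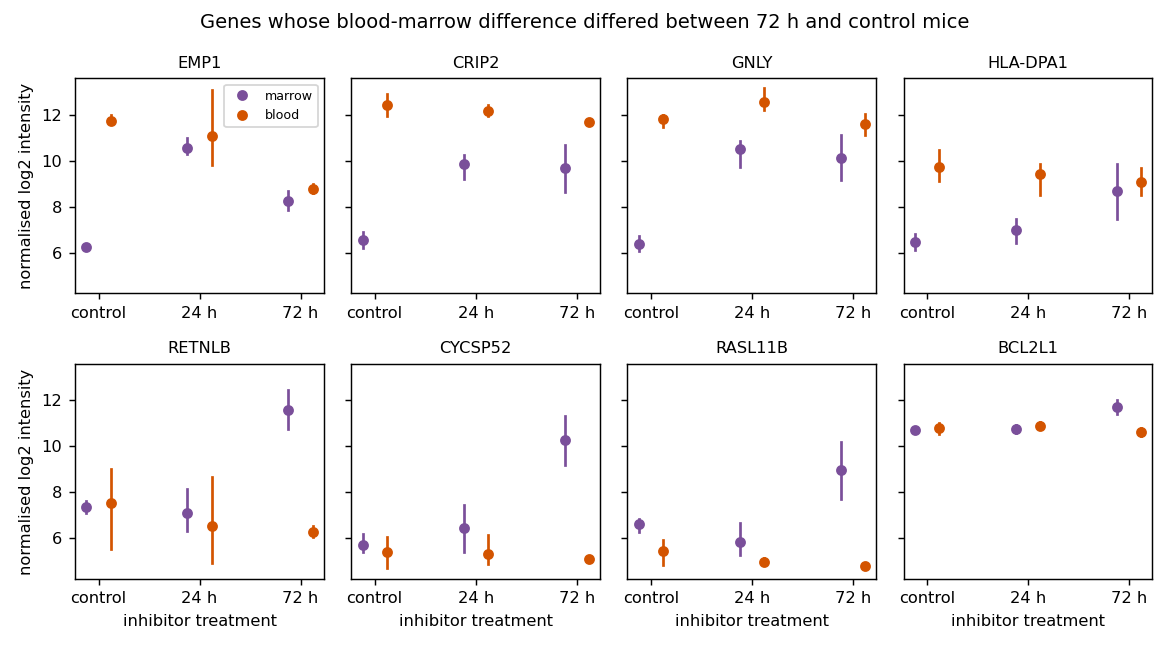
Normalised log2 intensity (y axis) of 8 genes in marrow (purple) and blood (orange) of control mice (3), 24 h mice (3) and 72 h mice (2); points are means and lines run from the lowest to the highest mouse. EMP1, CRIP2, GNLY and HLA-DPA1 differ in marrow between control and 72 h, and RETNLB, CYCSP52 and RASL11B read higher in 72 h marrow than in control marrow. EMP1, CRIP2 and GNLY were picked for their gap in control mice.

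Against the 24 h mice, 11 genes (0.106%) departed, 8 more positive and 3 more negative at 72 h, while 36.3% of genes differed between blood and marrow at 24 h. The 24 h arrays lie on another BeadChip than the 72 h arrays, so chip and time cannot be told apart. CYCSP52 and RASL11B departed by -4.02 and -3.32, and ARIH2OS, transcribed opposite ARIH2, by -2.38. MIR142, the gene of a blood cell microRNA, read 5.96 and 5.24 in 72 h marrow and 8.59 and 7.18 in 72 h blood and departed by 2.84. SERPINB10 (2.24), GOLIM4 (2.08), C1RL (1.95) and NCAM2 (1.92) were the next largest. The 2 other GOLIM4 probes had blood-marrow differences at 72 h of -0.01 and 0.33, against 1.30 for the probe used. NCAM2 was detected on none of the 4 arrays, so its departure rests on the levels of the 24 h mice.

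Some abundant transcripts were among the genes on which the mice differed most. ACTB, the cytoplasmic actin, read 14.15 in marrow and 10.09 in blood of mouse 8, and 14.26 and 14.20 in mouse 9. A second ACTB probe read 14.24 in marrow of mouse 8 and was not detected in its blood (4.79), while it differed by -0.14 in mouse 9, and another one differed by -1.03 and -0.62. POTEF, whose probe can share sequence with actin, and the ribosomal protein RPS25 showed the same split, at -4.60 and -0.19 for POTEF and -3.82 and -0.19 for RPS25. Each of these was bright on the other 3 arrays. BPI, a neutrophil granule protein, differed by -1.59 in mouse 8 and by 4.11 in mouse 9, where blood array 9 read 11.28 against 6.98 to 8.57 on the other 3, and DEF8 went from -2.71 to 0.70. On the other side SNORD46, SNORD83B, TCEA3, CETN3 and the histone gene H2AC4 were more positive in mouse 8, and H2AC4 was highest in marrow 9 (10.33). CETN3, a centrosome protein, differed by 2.80 in mouse 8 and by -0.08 in mouse 9. For ACTB, POTEF and RPS25, called lower at 72 h, the low readings were on blood array 8. Mouse 2 of the 24 h group also had lower blood readings, by -1.05, -1.62 and -2.08 in that order. In the remaining control and 24 h mice the differences lay between -0.295 and 0.0925.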

How the data were processed

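RNA from sorted OCI-AML3 cells was measured on Illumina HT12v4 human arrays. The authors deposited, per the labels, a table of mean bead intensity per probe from GenomeStudio, not background-subtracted, with a detection p-value beside each value. The deposited series matrix equalled this intensity minus 1 constant per array and served as an alternative. Gene symbols came from GEO's platform annotation, in which 30113 probes had 1 symbol and 8 had several.

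Intensities were corrected and quantile normalised with neqc (offset 16) of limma 3.58.1 in R 4.3.3 and put on a log2 scale. Probes detected at p under 0.01 on at least 3 of 24 arrays were kept, which left 17116 probes. The brightest probe by mean stood for each of 10351 genes. A model of all 24 arrays with 9 groups and the mouse as a fixed block gave 10 residual degrees of freedom, and tests were two-sided with Benjamini-Hochberg adjustment at 0.05. "At least N-fold" sets values of a side with no detected array to the lowest detected signal of that array. Detection limits and the number of arrays limit precision. The design text says that the sites of each mouse were harvested together, so numbers pair arrays, and same-mouse deviations from group means correlated at 0.284 on average over 24 pairs, against -0.162 over 42 pairs of different mice. Deviations within a group sum to 0, so the negative value for different mice is in part built in. For marrow with blood the same-mouse mean was 0.175 over 8 pairs (0.0149 to 0.303), and 0.0999 at 72 h. The block raised the calls from 433 to 1676. The labels do not say more about independence of the cells. Data were also simulated with independent noise, its spread set per gene and equal on all arrays. There 84 of 100 genes shifted by 2 log2 units and 49 of 100 shifted by 1 were recovered. Of 10151 unchanged genes 8 were called. Blood array 8 stands apart in the real data, so these counts do not give the error rate of the 1676 calls.

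Named genes were CXCR4, ACKR3 and CXCL12, the 10 largest rises and falls, up to 5 members of each list by p, the 5 largest departures each way and the 5 largest gaps between mice each way. TOP2A, CCNB1, AURKA, S100A12, FPR1, FDPS, MED28, ARHGEF12, HBB, CD3E, MPO, NPM1, PF4, ATF4, HSPA6, HSPA1A and HSPB1 were named after their values were seen. The comparison, lists and rule were chosen with earlier results of these data known. Alternatives covered normalization, background, filter, probe choice, pairing, chip and left-out replicates. Array weights did not converge and were not used.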

Additional observations from a re-analysis of the deposited data

Results flagged for a closer look

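Results are listed here because the blood-marrow difference after 72 h differed from that of another treatment group in a direct test of the difference between the differences (limma). Against controls 146 genes passed, and against 24 h mice 11 genes passed. Of the named genes, the differences of differences against controls were 3.24 for DHRS3, 3.06 for SCARNA2, 2.60 for LY9, 2.45 for MIR24-2 and 2.44 for SNORD49A. The negative ones were -5.51 for RETNLB, -4.97 for EMP1, -4.85 for CYCSP52, -4.68 for H19 and -4.60 for CD9. EMP1, H19 and CD9 belong to a group picked for its gap in control mice, so their values are a description. Against 24 h they were 2.84 for MIR142, 2.24 for SERPINB10, 2.08 for GOLIM4, 1.95 for C1RL and 1.92 for NCAM2, and -4.02 for CYCSP52, -3.32 for RASL11B and -2.38 for ARIH2OS. Without blood array 8 the difference against controls was 4.39 for DHRS3, -5.05 for EMP1 and -5.65 for CYCSP52, and 1.84 for SCARNA2. Blood array 8 detected 13131 probes, and its part in these results was not tested.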

How the results depend on the processing

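Counts of genes past the threshold for 72 h blood against marrow, for the departure from control and for the departure from 24 h were 1676, 146 and 11. With the series matrix values they were 55 (61.8% higher in blood, against 35.6%), 0 and 0 (789 and 477 genes at an unadjusted p under 0.05). Without background correction the departure from 24 h gave 5 genes, and without a filter on dim probes 0. With probes detected on all 24 arrays the departures gave 75 and 1. Without the replicate block, which pairs arrays of 1 mouse, the counts were 433, 23 and 0, all 433 and 23 among the genes called with it. On BeadChip 2 only, they were 628 and 10. The 4 arrays alone gave 0 (1680 unadjusted). Leaving out blood array 8 or any 1 mouse gave 380 to 2095 for blood against marrow, 18 to 1595 for the departure from control and 0 to 831 for that from 24 h. CXCR4 reversed with the mean of its probes (0.31) and without mouse 8 (0.16), as did NPC1 (0.0605, against -3.75 without mouse 9) without mouse 8. With mouse 8 alone CXCR4 differed by -1.34, in a fit with no replicate array at 72 h. Counts of called list members with and without the replicate block were 17 and 6 for mitosis, 13 and 4 for replication, 11 and 5 for ribosome biogenesis, 10 and 4 for monocyte, 6 and 1 for cholesterol, 4 and 1 for ATF4 and 5 and 0 for heat shock genes. Added after the data were seen, genes over 2-fold in mouse 8 went from 2527 to between 1199 and 4323, and in mouse 9 from 1438 to between 712 and 2600, over the scale, filter and probe choices; on the series matrix scale 9.32% of them were higher in blood in mouse 8 and 86.7% in mouse 9, against 36.2% and 53.2%. The cause of these changes was not tested. Array weights were not run because the estimate did not converge. Low signal on blood array 8 and 2 mice limit what can be read.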
